A study of Mus musculus with 10 samples.

Results

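The medium-chain acyl-CoA synthetase genes Acsm1, Acsm2, Acsm3 and Acsm5 were followed in kidneys of old mice on 2 diets. Every probe set whose platform annotation gave exactly 1 of these 4 symbols was taken, which gave 4 genes of 18194 named on the array and 7 of its 45101 probe sets, 4 for Acsm2 and 1 each for Acsm1, Acsm3 and Acsm5. All 7 passed the filter on low signal. The calorie-restricted group held 5 mice under long-term calorie restriction and the control group 5 mice on the control diet. All were male C57BL/6 mice of 30 months of age, and each mouse gave 1 kidney RNA sample and 1 Affymetrix Mouse Genome 430 2.0 array. The sources used here do not give the degree or length of the restriction, or the feeding state at collection. Whole kidney RNA was measured, so fewer cells of a type and less RNA per cell cannot be told apart.

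The ACSM enzymes sit in the mitochondrial matrix and join medium-chain fatty acids, and aromatic acids such as benzoate and salicylate, to coenzyme A at the cost of ATP. The acyl-CoA made in this way can enter beta-oxidation, or the acyl group can be passed to glycine by the acyltransferase Glyat, the step that turns benzoate into hippurate for excretion in urine. Liver and kidney are the main sites of this chemistry, and in kidney the proximal tubule carries most of it. Acsm2 is the member best known from proximal tubule. Acsm1 acts on butyrate and longer medium-chain acids, Acsm3 was first studied as the SA gene of hypertensive rats, and Acsm5 is the least studied of the 4 genes.

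The 4 genes lie on the same strand of chromosome 7, in the order Acsm5, Acsm2, Acsm1 and Acsm3. Their RefSeq promoter windows on GRCm38.p6, 250 bases before to 50 after each annotated start, were searched on both strands for 3 motifs of 6 letters. These were AGGTCA, the letters of a nuclear receptor half-site, GTTAAT, the half-site letters of HNF1 factors, and TATAAA, the TATA box. All 4 genes matched the table, with 5 windows in all because Acsm2 has a pair. The windows of the gene that passed the test with all arrays (Acsm2) and of the genes whose result turned on 1 control array (Acsm1 and Acsm3) are shown 5′ to 3′, all on the plus strand, with motif matches in capitals. They are the upstream Acsm2 window at chr7:119554090-119554389, the Acsm1 window at chr7:119617562-119617861 and the Acsm3 window at chr7:119760673-119760972.
Acsm2: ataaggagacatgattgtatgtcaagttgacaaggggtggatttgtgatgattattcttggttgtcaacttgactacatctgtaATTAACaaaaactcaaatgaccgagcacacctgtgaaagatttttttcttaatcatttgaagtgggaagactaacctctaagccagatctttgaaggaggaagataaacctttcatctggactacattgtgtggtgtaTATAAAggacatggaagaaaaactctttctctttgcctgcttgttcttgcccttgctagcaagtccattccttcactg
Acsm1: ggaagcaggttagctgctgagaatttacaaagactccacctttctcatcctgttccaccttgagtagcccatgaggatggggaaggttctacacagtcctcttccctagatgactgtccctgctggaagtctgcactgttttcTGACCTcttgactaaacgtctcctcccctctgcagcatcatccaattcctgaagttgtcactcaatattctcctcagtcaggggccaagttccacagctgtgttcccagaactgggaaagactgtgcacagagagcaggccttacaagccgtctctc
Acsm3: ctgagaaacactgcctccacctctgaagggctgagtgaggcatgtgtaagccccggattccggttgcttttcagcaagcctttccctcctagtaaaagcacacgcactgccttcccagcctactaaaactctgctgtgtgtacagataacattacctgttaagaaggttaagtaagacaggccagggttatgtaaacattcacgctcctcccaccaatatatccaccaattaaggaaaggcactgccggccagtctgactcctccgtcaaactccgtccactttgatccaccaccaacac
The Acsm2 window held GTTAAT on the minus strand, with its first base in the window at -166 from the start, and TATAAA on the plus strand at -28. The Acsm1 window held AGGTCA on the minus strand at -107. The Acsm3 window, the second Acsm2 window (chr7:119561458-119561757) and the Acsm5 window (chr7:119526015-119526314) held none of these letters. Of all 32851 promoter windows in the table, 16.3% held AGGTCA, 7.1% held GTTAAT and 13.6% held TATAAA. The GC content was 38.3% in the Acsm2 window with both matches and 46.7% to 51.3% in the other 4 windows, against a median of 52.7% over all windows. These matches are letters in a window and say nothing of binding.

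Signals are the authors' MAS5 intensities on a linear scale. Differences are on the log2 scale, calorie-restricted over control kidneys, each with limma's SE. Adjusted p values are limma's too, adjusted after Benjamini and Hochberg across the 22519 tested probe sets, with calls made at 0.05. Arrays had been scaled to a common mean taken without the extremes. The full mean signal was 786 to 831 in the calorie-restricted group and 755 to 768 in the control group, without overlap. Rank correlations between arrays were 0.926 to 0.951 within a diet and 0.922 to 0.95 between diets. Control replicate 1 gave the highest control signal on 7 of 7 Acsm probe sets, and each result that rests on it is given with and without it. The Y-linked genes Eif2s3y and Kdm5d were present on all 10 arrays, control replicate 1 included.

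Acsm2 was the only member called higher with all 10 arrays, and Acsm1, Acsm3 and Acsm5 did not pass the test. Quantile normalization took the Acsm2 calls away. No pair of members differed past the threshold in response, so the call does not set Acsm2 apart from the others. All 7 probe sets had a difference above 0, from 0.20 to 1.43. The test called 2 of 7 higher, both of Acsm2, which is 28.6%, against 2.93% called higher among all tested probe sets. In 1 of 7 every calorie-restricted array lay above every control array, which held for 3.67% of all tested probe sets. Without control replicate 1, the called probe sets were 5 of 7 and covered Acsm1, Acsm2 and Acsm3, against 2.99% of all tested probe sets called higher. Acsm3 counts there with controls below the signal filter. Groups then failed to overlap in 5 of 7, against a background of 5.63%. Control replicate 1 was the highest control on 7 of 7, so leaving it out raises every Acsm difference by construction. The counts without it are a description, and no comparison with the background can rest on them.

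The brightest Acsm2 probe set, 1456190_a_at, had signals of 25976, 31319, 28585, 24728.5 and 22743 in calorie-restricted replicates 1 to 5, against 20848, 16254, 14289.9, 14009 and 17440.3 in control replicates 1 to 5. Every calorie-restricted kidney lay above every control kidney, and control replicate 1 came closest to them. The means were 26670.2 ± 3352 in calorie-restricted and 16568 ± 2780.03 in control kidneys (SD, n = 5 each). The log2 difference was 0.69 ± 0.11 (SE), a 1.62-fold higher signal, with a limma adjusted p of 0.0138. It passed with each of the 10 arrays left out in turn, at 0.63 to 0.78. After quantile normalization, which forces all arrays to 1 distribution, it was 0.41 and the adjusted p was 0.063.

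The second Acsm2 probe set, 1427223_a_at, gave 11222, 16004, 16562, 13844 and 12915.5 in calorie-restricted replicates 1 to 5, against 15372, 7350.4, 5562, 4707 and 7436 in control replicates 1 to 5. The groups overlapped through control replicate 1 alone, which lay among the calorie-restricted values, while the other 4 controls lay below all of them. The difference was 0.92 ± 0.24 with a limma adjusted p of 0.0414, and without control replicate 1 it was 1.18 ± 0.15 with 0.00252. This call was lost in 15 of 24 alternative settings, where the adjusted p ran up to 0.415, so it is less secure than that of the brightest probe set.

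The third Acsm2 probe set, 1427215_at, gave 7914, 7882, 10438, 13120.1 and 10834 in calorie-restricted replicates 1 to 5, against 10398, 7706, 5936, 4826 and 6786 in control replicates 1 to 5. The groups overlapped, again with control replicate 1 the highest control. The difference of 0.51 ± 0.19 did not pass (limma adjusted p = 0.104), and it passed without control replicate 1 at 0.66 ± 0.16 (adjusted p = 0.0346). The dimmest, 1427224_at, ran from 255 to 531 in calorie-restricted and from 151 to 714 in control kidneys, with control replicate 1 the highest of all 10 arrays. Its difference was 0.37 ± 0.34 (limma adjusted p = 0.521), with 0.68 without control replicate 1 (adjusted p = 0.145) and 0.12 without control replicate 4 (adjusted p = 0.856). The Acsm2 probe sets thus shared a direction and differed in whether they passed. Averaging the 4 on each array gave a difference of 0.62 for Acsm2 with a limma adjusted p of 0.0797.

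**Figure D1:**
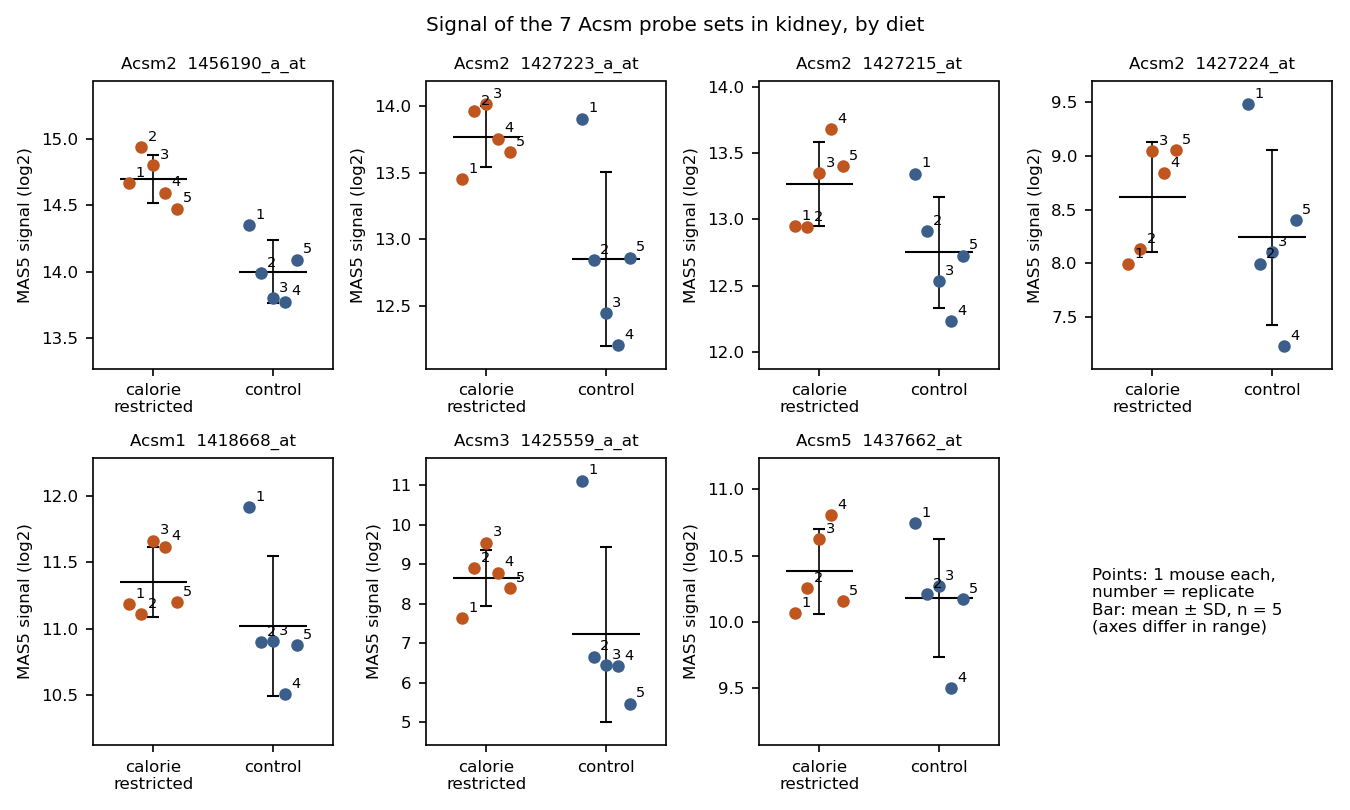
Log2 MAS5 signal of the 7 Acsm probe sets, 1 panel each, with calorie-restricted mice on the left and control mice on the right; points are single mice numbered by replicate and bars are mean ± SD (n = 5 per group). Control replicate 1 is the highest control in every panel, and only the panel of Acsm2 1456190_a_at has no overlap between the diets.

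Acsm1 signals were 2324, 2206, 3239.7, 3141 and 2349.5 in calorie-restricted replicates 1 to 5, against 3862, 1909, 1915, 1456 and 1878 in control replicates 1 to 5. Control replicate 1 was the highest of all 10 arrays, and the other 4 controls lay below every calorie-restricted kidney. Group means were 2652 ± 496 in calorie-restricted and 2204 ± 947 in control kidneys (SD, n = 5 each). The difference was 0.33 ± 0.21 with a limma adjusted p of 0.339. Without control replicate 1 it was 0.56 ± 0.14 with an adjusted p of 0.0389, so that single array decided the call.

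Acsm3 showed the widest spread of the members. Its signals were 199, 478, 747, 441 and 337 in calorie-restricted replicates 1 to 5, against 2213, 101, 86.7, 85.8 and 44.4 in control replicates 1 to 5. Control replicate 1 was above all other arrays, and the other 4 controls lay below all 5 calorie-restricted kidneys. The medians were 441 in calorie-restricted and 86.7 in control kidneys, while the linear means ran the other way, at 440.4 ± 203 in calorie-restricted and 506 ± 954 in control kidneys (SD, n = 5 each). The log2 difference of 1.43 ± 0.79 did not pass (limma adjusted p = 0.269). Without control replicate 1 it was 2.40 ± 0.34 with an adjusted p of 0.00377. Controls 2 to 5 all lay below the filter on low signal, 112 on the linear scale, so with control replicate 1 left out Acsm3 passed that filter only through the calorie-restricted kidneys. The size of that difference is therefore uncertain, and its p is no independent support.

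The Acsm3 signal of control replicate 1 was 21.9 times that of the next control. Among all 22519 tested probe sets this gap was the widest that control replicate 1 showed over the next control, and the widest that any array showed over the next of its group. The same gap ranked 46 for Acsm1 and 307 for Acsm5, and between 39 and 949 for the 4 Acsm2 probe sets. Control replicate 1 stood clear of the other controls at the high end, by a 95% Dixon criterion, in 125 of all tested probe sets, while the other 9 arrays did so within their groups in 65 to 106. Whatever sets this mouse's Acsm levels was not tested.

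Acsm5 signals were 1072, 1219.6, 1579, 1789 and 1144 in calorie-restricted replicates 1 to 5, against 1712, 1183, 1232, 725 and 1155 in control replicates 1 to 5. The groups overlapped widely, with control replicate 1 among the highest and control replicate 4 the lowest. The difference was 0.20 ± 0.20 (limma adjusted p = 0.555), and 0.34 ± 0.19 without control replicate 1 (adjusted p = 0.270). It was 0.034 without control replicate 4 (limma adjusted p = 0.931) and 0.097 without calorie-restricted replicate 4 (adjusted p = 0.791). Control replicate 4 was the lowest control on 6 of 7 Acsm probe sets, the exception being Acsm3.

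Whether the members differed from each other in their response was tested on the per-array log2 difference between the brightest probe sets of each pair of genes. None of the 6 pairs passed a 2-sided exact permutation test, with raw p values of 0.0556 to 0.484 and adjusted p values of 0.333 to 0.484. The smallest p this design allows is 0.00794. The response of Acsm2 exceeded that of Acsm5 by 0.49 and that of Acsm1 by 0.36. After quantile normalization these differences in response were 0.16 and 0.050. Without control replicate 1 the response of Acsm3 exceeded that of Acsm2 by 1.62, of Acsm1 by 1.85 and of Acsm5 by 2.06, given as values only. The remaining Acsm3 control signals lay below the signal filter, so the size of these differences is uncertain.

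**Figure D2:**
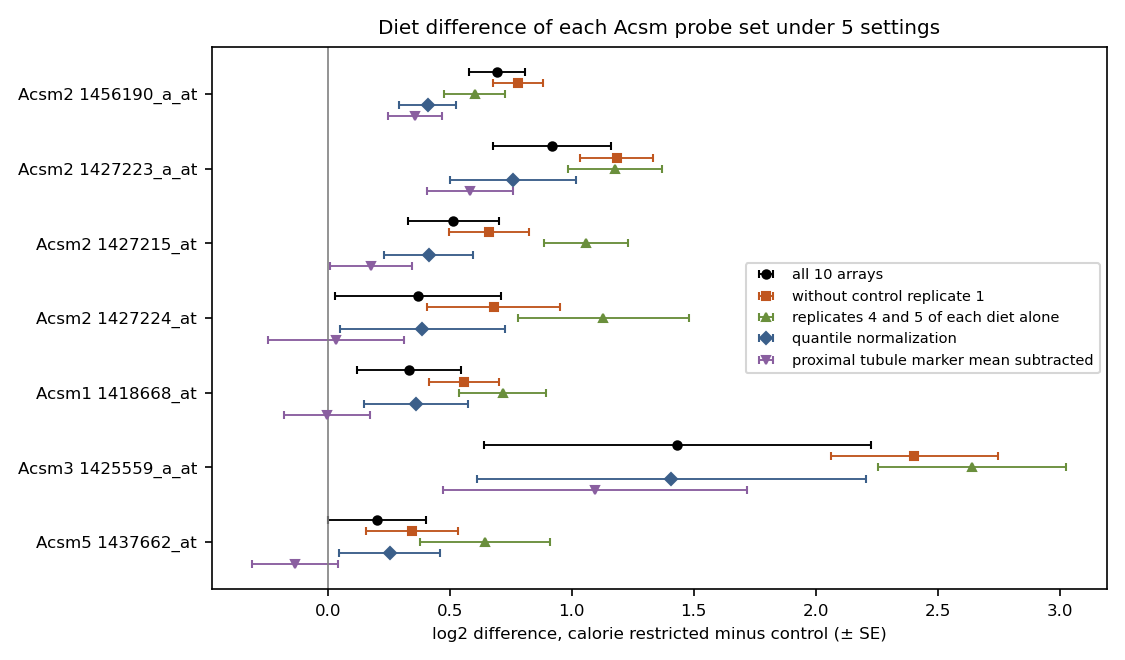
Log2 difference of each Acsm probe set, calorie restricted minus control, with its SE under 5 settings; the vertical line marks 0. The brightest Acsm2 probe set keeps a difference of 0.36 to 0.78 under all 5, Acsm3 moves between 1.10 and 2.64, and Acsm1 and Acsm5 reach -0.0031 and -0.13 once the proximal tubule marker mean is subtracted.

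Proximal tubule markers were higher in the same kidneys. Of 33 markers tested, 19 rose and 0 fell, with a median difference of 0.38 against -0.0052 over all tested genes, where 3.08% were called higher and 3.02% lower. The aspartic protease gene Napsa was one of them, at 0.39 ± 0.071, and at 0.11 after quantile normalization, which brought the list median to 0.20. The mean of the list, on a centred log2 scale, was -0.0043 to 0.31 in calorie-restricted kidneys and -0.43 to 0.13 in control kidneys. Control replicate 1 had the highest value of the controls, 0.13, and the other controls lay between -0.43 and -0.12.

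With that list mean subtracted from each array, the brightest Acsm2 probe set was 0.36 ± 0.11 higher (limma adjusted p = 0.028). The second was 0.58 ± 0.18 higher (limma adjusted p = 0.0239). Acsm3 was at 1.10 ± 0.62 (adjusted p = 0.189), Acsm1 at -0.0031 ± 0.18 (adjusted p = 0.991) and Acsm5 at -0.13 ± 0.18 (adjusted p = 0.581). The subtraction moves the median of all tested probe sets to -0.34, so all these values lie above that median. It left 5535 probe sets past the threshold, 1.3% of them higher. So many calls ease the Benjamini and Hochberg adjustment, and these adjusted p values do not compare with those of the main fit. Whether Acsm2 rose beyond the proximal tubule markers was not tested.

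RNA of the calorie-restricted kidneys had a higher 3′ to 5′ ratio over Gapdh and Actb, a measure of shortened RNA or incomplete labelling. The log2 ratio was 1.67 ± 0.46 in calorie-restricted and 1.05 ± 0.26 in control samples (SD, n = 5 each, 2-sided exact permutation p = 0.0476), and it missed the threshold without any 1 of replicates 1 to 3 of either diet. Replicates 4 and 5 of each diet had similar ratios, 1.24 and 1.16 in calorie-restricted and 1.39 and 1.25 in control samples. Among these 4 arrays the brightest Acsm2 probe set differed by 0.60 ± 0.13 (limma adjusted p = 0.081), the second by 1.18 ± 0.19 (adjusted p = 0.0374) and Acsm3 by 2.64 ± 0.39 (adjusted p = 0.0285). These 4 arrays leave out control replicate 1, the highest control on 7 of 7 Acsm probe sets. They keep control replicate 4, the lowest control on 6 of 7. This choice of controls can raise an Acsm difference, so these p values, those of Acsm2 included, are no independent support. With all 10 arrays Acsm3 did not pass. The Acsm3 signals of control replicates 4 and 5 lay below the signal filter. The size of that Acsm3 difference is therefore uncertain, and its p is no independent support. With the ratio as a covariate over all 10 arrays, the brightest Acsm2 probe set was at 0.61 ± 0.15 (limma adjusted p = 0.143). The other Acsm2 probe sets, 1427223_a_at, 1427215_at and 1427224_at, were at 1.11, 0.96 and 1.03. Acsm3 was at 2.12, Acsm1 at 0.59 and Acsm5 at 0.53. All but the brightest Acsm2 probe set thus had larger differences than without the covariate. Of the 7 Acsm probe sets 0 passed in that fit, as against 9 of all 22519 tested. The part of RNA quality in these results beyond these values was not tested.

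Hepatocyte genes also moved with diet. The list mean was -0.19 to 1.01 in calorie-restricted kidneys and -0.63 to -0.27 in control kidneys, with no overlap. Of 7 tested hepatocyte genes, all 7 had differences above 0 and 1 passed, albumin (Alb), at 1.53 ± 0.36 (limma adjusted p = 0.0312). The liver enzymes Tat and Cyp7a1 and the plasma protein gene Ahsg lay below the signal filter. Control replicate 1, high in Acsm3, was at -0.43 on this list. The part of these genes in the Acsm result was not tested. Of markers of other cells, 4 of 10 macrophage genes fell, as did 2 of 10 of fibroblasts and smooth muscle, 2 of 6 of podocytes, 2 of 6 of adipocytes and 1 of 5 of B and plasma cells, with 0 higher in each. Of 8 endothelial and 10 thick limb and distal tubule genes 0 passed limma's test, with 3 and 2 at an unadjusted p under the threshold, and of 9 collecting duct genes 1 rose. Their part in the Acsm result was likewise not tested.

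Few genes that act beside the ACSM enzymes passed the test. Of 12 tested genes of glycine conjugation and CoA release, 1 rose and 0 fell, against 3.08% higher and 3.02% lower over all tested genes. The list median was -0.012. Glyatl1, Glyatl3 and Gm4952 of this list were not analysed here. Most of its tested genes belong to CoA release, so the median says little of glycine conjugation. The gene that rose was Glyat, which transfers the acyl group made by ACSM enzymes to glycine. Glyat signals were 23393, 26873, 21712, 22498 and 19301 in calorie-restricted replicates 1 to 5, against 18081, 15172, 14091, 14185 and 15798 in control replicates 1 to 5. All calorie-restricted values lay above all control values, and the difference was 0.55 ± 0.095 (limma adjusted p = 0.0152). After quantile normalization the difference was 0.31 (adjusted p = 0.0582). The remaining genes of the list, most of them acyl-CoA thioesterases, did not pass.

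Of 12 tested synthetases outside the ACSM family, 2 rose and 0 fell by their brightest probe sets, and the list median was 0.31. The unadjusted limma p was under 0.05 for 8 of the 12, genes with lower signal among them. Over all tested genes 3.08% were called higher and 3.02% lower. The other tested probe set of Acsl4 was called lower and that of Aacs higher, while their brightest probe sets did not pass. Acss2, the cytosolic enzyme that makes acetyl-CoA from acetate, differed by 0.75 ± 0.16 (limma adjusted p = 0.0249). Slc27a2, a very long-chain acyl-CoA synthetase and fatty acid transporter of proximal tubule, differed by 0.40 ± 0.076 (adjusted p = 0.0181), which quantile normalization brought to 0.050 (adjusted p = 0.617). Acss2 kept a difference of 0.70 there. The list mean lay higher in all 5 calorie-restricted kidneys, at -0.023 to 0.36, than in any control kidney, at -0.29 to -0.12. Control replicate 1 was at -0.21. This mean includes Acsf2, whose mean log2 signal in control kidneys, 6.08, lay below the signal filter. Acsf2 signals ran from 22.5 to 152 in control kidneys, with 39.5 in control replicate 1, and from 94 to 403 in calorie-restricted kidneys. The place of control replicate 1 among the controls thus rests in part on this dim gene. Its place without Acsf2 was not tested.

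Of 21 tested genes of short- and medium-chain fatty acid oxidation, 1 rose and 1 fell, with a median of 0.062. These counts are near the background of 3.08% higher and 3.02% lower over all tested genes. Hadh, the 3-hydroxyacyl-CoA dehydrogenase of shorter chains, rose by 0.46 ± 0.080 (limma adjusted p = 0.0152), against 0.072 after quantile normalization (adjusted p = 0.405). Of the 2 other tested Hadh probe sets, 1 had the same direction and 0 were called. Etfdh, which passes electrons from acyl-CoA dehydrogenases to ubiquinone, fell by 0.50 ± 0.14 (adjusted p = 0.0484), which did not pass without control replicate 1 (0.0799). Of 10 genes of coenzyme A synthesis and pantothenate supply, 0 rose and 1 fell, Vnn1, the pantetheinase, at -0.40 ± 0.10 (limma adjusted p = 0.0363). Of 10 regulators of proximal tubule and fatty acid genes, 1 rose, Hnf4a, a nuclear receptor of proximal tubule and liver, at 0.39 ± 0.10 (limma adjusted p = 0.0388), and 1 of its 3 other probe sets had the same direction. Its difference was 0.26 after quantile normalization (adjusted p = 0.110). Once the ratio of 3′ to 5′ signal entered the fit as a covariate, none of the 7 genes named in these lists passed limma's test, with adjusted p values of 0.163 to 0.687. Only 9 of all 22519 tested probe sets passed in that fit, so this says little about these genes in particular. The differences were then 0.46 for Glyat, 0.64 for Acss2, 0.34 for Slc27a2 and -0.47 for Vnn1, while Etfdh was at -0.11. Hadh was at 0.30 and Hnf4a at 0.23. Hnf4a and Slc27a2 are also on the proximal tubule marker list and are counted among its higher genes.

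The chromosomal neighbours of the cluster did not pass the test. Of 13 protein-coding genes around and inside it, 9 were tested and 0 were called by limma, with 2 at an unadjusted p under the threshold. Umod, the thick limb gene for uromodulin, differed by 0.29 ± 0.084 (limma adjusted p = 0.0556). Thumpd1, which lies between Acsm1 and Acsm3, differed by -0.55 ± 0.19 (adjusted p = 0.0931). Acsm4, Gpr139, Ppp1ccb and Dnah3 were not analysed here. The difference between neighbours and members was not tested.

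**Figure D3:**
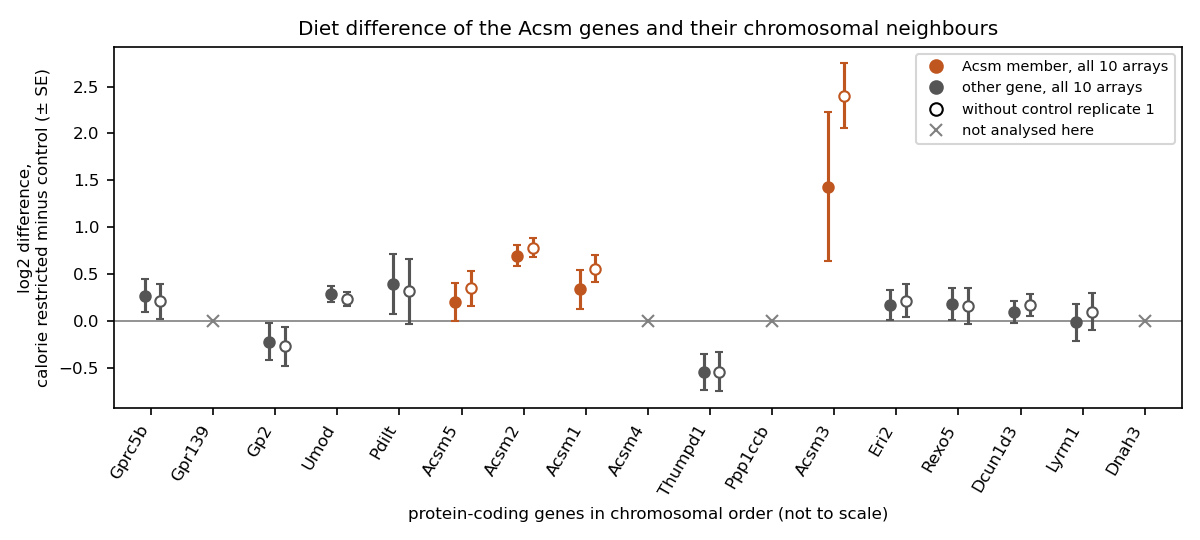
Log2 difference with its SE, calorie restricted minus control, of the Acsm genes (orange) and their protein-coding neighbours (grey) in chromosomal order, not to scale; filled points use all 10 arrays, open points leave out control replicate 1 and crosses mark genes not analysed here. Tested neighbours lie between -0.55 and 0.39, and Acsm3 lies at 1.43 with all arrays and at 2.40 with that array left out.

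Genes with a profile like a member's were ranked by the root mean square distance between log2 profiles over the 10 arrays, each minus its own mean, among 12195 genes. Nearest to the brightest Acsm2 probe set was Tcn2, the vitamin B12 carrier transcobalamin, at 0.055. Then came Adh1, an alcohol dehydrogenase, at 0.10, and Shmt2, the mitochondrial serine hydroxymethyltransferase, Glyat and the ubiquitin protease Usp2, each at 0.11. All 5 were called higher with calorie restriction. They were chosen for likeness to a called profile, so these calls follow from the choice. From the brightest Acsm2 probe set, Acsm1 ranked 2899, Acsm5 4021 and Acsm3 12181. From 1427223_a_at, 1427215_at and 1427224_at, Acsm1 ranked 97, 19 and 8, and Acsm5 ranked 411, 52 and 35. Acsm3 ranked between 12093 and 12181 from all 4. The place of Acsm1 and Acsm5 thus depended on which Acsm2 probe set was taken, under a measure that counts the size of a change as well as its course.

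Acsm1 and Acsm5 were closer to each other, at 0.18. Acsm5 ranked 7 among the genes nearest to Acsm1, and Acsm1 ranked 12 among those nearest to Acsm5. The Acsm2 probe set 1427215_at ranked 29 for Acsm1 and 123 for Acsm5. The nearest gene was Amacr, an epimerase of branched-chain and bile acid CoA esters, for Acsm1 and Acad9, a mitochondrial acyl-CoA dehydrogenase and complex I assembly factor, for Acsm5, each at 0.14.

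Nearest to Acsm3 were Slco1a1, an organic anion transporter, at 0.53, and Akr1c14, a hydroxysteroid dehydrogenase, at 0.54. Ugt2b37, a glucuronosyltransferase, Cyp2j13, a cytochrome P450, and Slc22a30, a member of the organic ion transporter family, followed at 0.78, 0.80 and 0.85. Slco1a1 signals were 344, 673, 1292, 249.5 and 461 in calorie-restricted replicates 1 to 5, against 1662, 89.9, 116, 90.4 and 77.1 in control replicates 1 to 5. As for Acsm3, control replicate 1 was above all other arrays and the remaining controls lay below every calorie-restricted kidney. None of these 5 genes passed the limma test with all 10 arrays, and all 5 were called higher without control replicate 1. They were chosen for this profile, so that count is a description.

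**Figure D4:**
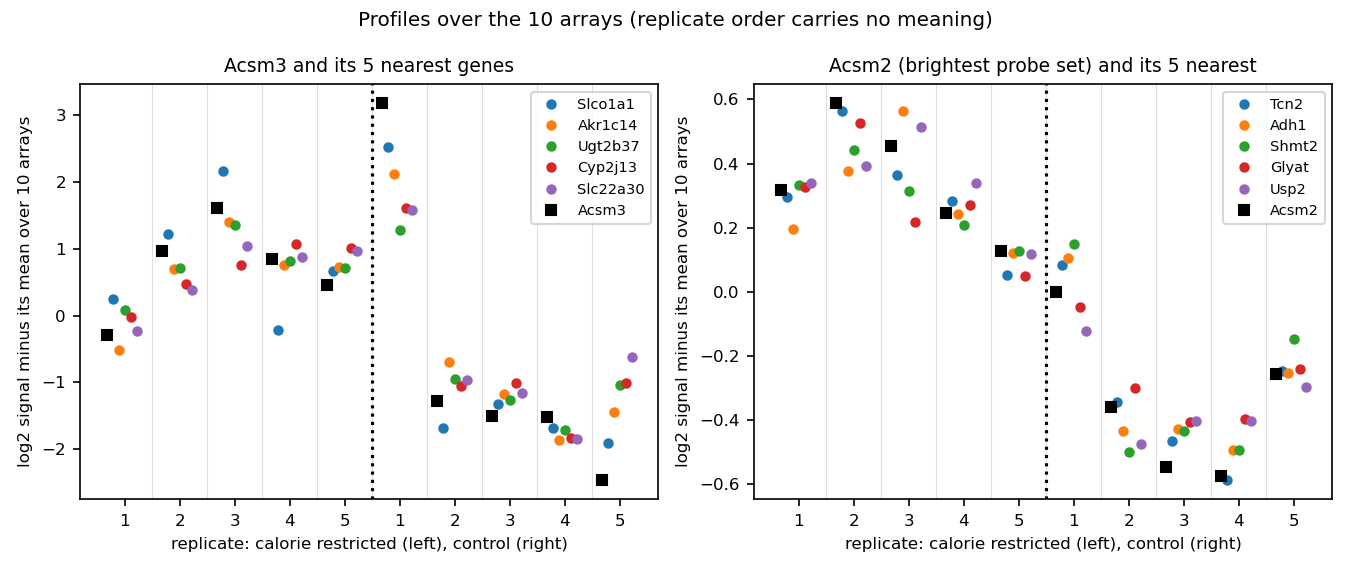
Log2 signal minus its mean over the 10 arrays for Acsm3 (left, black squares) and the brightest Acsm2 probe set (right, black squares) with the 5 genes nearest to each (coloured points); calorie-restricted replicates stand left of the dotted line and control replicates right of it. In the left panel control replicate 1 lies far above the other controls in all 6 genes, and in the right panel it is the highest control in all 6 genes, below every calorie-restricted replicate in Acsm2, Adh1, Glyat and Usp2 and above the lowest of them in Tcn2 and Shmt2.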

How the data were processed

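Kidney RNA of 10 mice was measured on Affymetrix Mouse Genome 430 2.0 arrays, 1 mouse per array, and groups were taken from the labels. Per the submitters' processing notes, the authors made the deposited intensity values as MAS5 signals with Affymetrix Expression Console. In the deposited intensities the mean without the lowest and highest 2% was 500.0 on every array, so arrays had been scaled to it. This levels that trimmed mean only, and array differences that depend on brightness remain. MAS5 subtracts mismatch signal, which makes low values imprecise, and precision is limited by having 5 arrays per group.

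Signals below 1 were set to 1 and log2 was taken. The test took in probe sets with a mean log2 signal of at least 6.81, the median of all probe sets apart from the 64 controls, which left 22519 probe sets and 12196 named genes. Of 45101 probe sets, 34958 had 1 symbol, 932 several and 9211 none, and 34754 matched RefSeq by gene ID. Diets were compared with limma 3.58.1 in R 4.3.3 (lmFit, eBayes with an intensity trend, 2-sided). A gene in a list is its brightest probe set. The method was tested on simulated data. Pairs of members and the 3′ to 5′ ratio were compared by exact permutation tests. Named genes were every Acsm probe set, up to 4 called genes per list with the smallest p, or 2 where none passed, and the 5 genes nearest to a called member. Nearest genes of the other members were added after their values were seen. Sequences are from RefSeq, build GRCm38.p6. The members and lists were chosen with earlier results of these data known. Same-numbered arrays did not deviate together (correlations of -0.14 to -0.087), so the numbers were not used as pairs. Alternatives covered filters, normalization, moderation, RNA quality, the replicate block and leaving out each array.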

Additional observations from a re-analysis of the deposited data

Results flagged for a closer look

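Of 170 groups of 5 values examined, 12 had a highest or lowest sample set apart from the other 4, and chance gives about 1 in 20. Among the members this was the highest control, replicate 1, for Acsm1, with a signal of 3862 against 1915 in the next control, and for Acsm3, with 2213 against 101. Among the genes nearest to members, the highest control was set apart for Mogat1 at 7375, Ugt2b38 at 16410.2, Acy3 at 14549.5, Slco1a1 at 1662, Ugt2b37 at 8945 and Cyp2j13 at 4238. These genes were named for profiles like those of the members, so they are not separate evidence. The lowest calorie-restricted kidney was set apart for Mep1a, at 10981 against 14390.3 in the next. In the marker lists, Mrc1 was high in 1 calorie-restricted kidney at 531, Umod was low in 1 control kidney at 22090.2, and the macrophage list mean was high in 1 calorie-restricted kidney at 0.18.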

How the results depend on the processing

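The brightest Acsm2 probe set stayed above 0 in all 25 alternatives and past the threshold in 19. It missed the threshold at 0.53 (replicates 4 and 5 of the calorie-restricted group set against 5 controls), 0.60 (replicates 4 and 5 of each diet), 0.61 (3′ to 5′ ratio as covariate), 0.41 (quantile normalization), 0.41 (covariate and quantile normalization together) and 0.62 (mean of probe sets). The second Acsm2 probe set missed it in 15 of 24. With proximal tubule markers subtracted, Acsm1 turned to -0.0031 and Acsm5 to -0.13. Leaving out single arrays moved Acsm1 between 0.21 and 0.56 and Acsm3 between 0.99 and 2.40, and replicates 4 and 5 of each diet alone gave 2.64 for Acsm3. The differences in response ran from 0.28 to 1.62 for Acsm3 minus Acsm2, from 0.70 to 1.85 for Acsm3 minus Acsm1 and from 0.79 to 2.06 for Acsm3 minus Acsm5. In all of these the upper end came without control replicate 1. Acsm2 minus Acsm1 ran from 0.050 to 0.45 and Acsm2 minus Acsm5 from 0.16 to 0.62, both lowest after quantile normalization. The cause of these changes was not tested.

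The count of called Acsm probe sets, 2 with all arrays, was 0 with those 2 calorie-restricted replicates against 5 controls, with quantile normalization, with the ratio covariate and with covariate and quantile normalization together. It was 1 without trend, without a filter, with robust moderation and with the replicate block. It was 5 without control replicate 1, and 1 without any 1 of calorie-restricted replicates 1 to 3 or control replicates 2 to 5. The replicate block, made of arrays that share only a number, kept the brightest Acsm2 probe set past the threshold (limma adjusted p = 0.0458). The ratio difference of 0.62 ran from 0.49 to 0.75 with single arrays left out, and missed the threshold without any 1 of replicates 1 to 3 of either diet.

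Among all tested probe sets 1371 passed, 48.1% of them higher. The count was 2292 with array weights, 751 with quantile normalization, 287 without a filter, 243 without trend, 198 with replicates 4 and 5 alone and 127 with the replicate block. It was 9 with the covariate, 5 with covariate and quantile normalization, 1 with those 2 calorie-restricted replicates against 5 controls, and 125 to 2481 with single arrays left out. With proximal tubule markers subtracted it was 5535, 1.3% of them higher, and median centring gave 64.3% higher. Without control replicate 1, glycine conjugation had 1 gene higher and 1 lower, against 1 and 0 with all arrays. Other synthetases had 3 higher and 1 lower, against 2 and 0. Coenzyme A synthesis had 1 higher and 1 lower, against 0 and 1. The collecting duct list had 0 called, against 1 higher, and the adipocyte list 1 lower, against 2 lower. Acsm3 was not tested under the stricter filter, which it did not pass.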
